A study of Mus musculus with 2 samples.

Results

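The liver makes glucose and stores it, and 9 genes that carry out or control this work are described here by the openness of their chromatin: *Pcx*, *Pck1*, *Fbp1*, *G6pc*, *Tat*, *Ppargc1a*, *Pklr*, *Gys2* and *Slc2a2*. They were chosen by name for their roles. A region of the deposited table belonged to one of them when that gene had the closest transcription start site (TSS). This gave 62 of the 69549 distinct regions, for 9 of the 27433 genes so named. Of these regions, 10 had their centre within 1 kb of the TSS and are called promoter regions, and the other 52 lay farther away.

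The measurement was ATAC-seq, in which the Tn5 transposase cuts open DNA and adds sequencing adaptors to it, so that the reads over a stretch of DNA reflect how accessible it is. Nuclei came from the livers of C57BL/6 mice that were 8 weeks old and ate normal chow. The control library was *Mettl3* flox/flox, with both copies of *Mettl3* carrying the flox allele and no Cre listed. The other library was *Mettl3*-HKO (*Mettl3* flox/flox *Alb*-Cre+/-), which has the same flox alleles and in addition Cre under the *Alb* promoter, active in hepatocytes, so that *Mettl3*, which encodes the catalytic subunit of the RNA m6A methyltransferase, is deleted in hepatocytes and kept in the other cells of the liver. Per the study's methods the livers of 4 mice were pooled for each group. There was thus 1 library per group, no replicate error and no test, and whether a difference between the libraries exceeds the spread between mice could not be measured.

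In fasting, hepatocytes build glucose from lactate, glycerol and amino acids. The path runs past the irreversible steps of glycolysis with enzymes of its own: pyruvate carboxylase (*Pcx*) makes oxaloacetate, phosphoenolpyruvate carboxykinase (*Pck1*) turns that into phosphoenolpyruvate, fructose bisphosphatase (*Fbp1*) acts in the middle of the path, and the glucose phosphatase (*G6pc*) releases free glucose. Glucagon, acting through cyclic AMP, and glucocorticoids switch on genes of this path, insulin switches them off, and the fed liver instead runs glycolysis and stores glycogen.

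The totals behind the deposited RPM values (counts plus 1 read, scaled to a common library size) were 52826202 reads for *Mettl3* flox/flox and 58038305 for *Mettl3*-HKO. Values below are raw counts, RPM and the log2 ratio, *Mettl3*-HKO divided by *Mettl3* flox/flox, with 1 read added on that scale. Intervals are 95% Clopper-Pearson intervals, made from the split of a region's counts between the libraries. They cover counting error only. Peaks were called with duplicate reads kept, and whether the counts include duplicates is not stated. The strongest region is the one with the highest mean RPM of both libraries, without division by its length. On this scale the median log2 ratio was −0.38 over all regions and −0.56 over the 14387 promoter regions, so each value is also read against these. All regions together held 31.7% of the library total in *Mettl3* flox/flox and 22.3% in *Mettl3*-HKO, a log2 ratio of −0.51. A ratio below 0 on this scale was thus common over the table, as for 64.8% of all regions. The promoter of *Mettl3* had 566 counts in *Mettl3* flox/flox and 392 in *Mettl3*-HKO, which does not check the genotypes, since an open promoter does not measure a deleted exon. Promoter regions were found for 8 of 8 hepatocyte markers, with 161 to 919 counts in *Mettl3* flox/flox and 83 to 533 in *Mettl3*-HKO, and for 0 of 8 lymphocyte markers. In whole liver, fewer hepatocytes and less open chromatin per hepatocyte cannot be told apart.

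Of the 9 genes, 8 had a promoter sequence in the RefSeq table, on GRCm38.p6, and *Gys2* had none. Shown here are the 250 bases before 4 start sites, because they sit in the regions with the 2 largest promoter differences between the libraries in genes of glucose production (*Pck1* and *G6pc*), in the promoter region with the smallest difference (*Pklr*), and in a weak region without a detectable difference, at a start that the deposited table does not use (*Ppargc1a*). Each runs 5′ to 3′ toward the gene, and capitals mark the motif letters found.
*Pck1*, chr2:173152823-173153072, plus strand: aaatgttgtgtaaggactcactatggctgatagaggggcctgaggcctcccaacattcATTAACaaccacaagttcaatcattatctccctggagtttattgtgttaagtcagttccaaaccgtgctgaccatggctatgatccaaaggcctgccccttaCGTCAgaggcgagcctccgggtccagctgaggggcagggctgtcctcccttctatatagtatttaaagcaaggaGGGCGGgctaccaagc
*G6pc*, chr11:101367466-101367715, plus strand: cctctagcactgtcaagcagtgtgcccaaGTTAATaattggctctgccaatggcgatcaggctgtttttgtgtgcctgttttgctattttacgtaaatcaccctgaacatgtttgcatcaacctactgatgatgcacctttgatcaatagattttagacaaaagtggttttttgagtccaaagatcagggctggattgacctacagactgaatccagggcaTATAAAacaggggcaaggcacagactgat
*Pklr*, chr3:89136373-89136622, plus strand: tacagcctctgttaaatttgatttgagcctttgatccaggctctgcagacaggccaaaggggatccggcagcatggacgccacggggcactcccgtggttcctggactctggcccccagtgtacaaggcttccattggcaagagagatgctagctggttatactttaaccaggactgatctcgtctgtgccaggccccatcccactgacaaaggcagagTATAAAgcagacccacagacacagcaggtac
*Ppargc1a*, chr5:51567726-51567975, minus strand: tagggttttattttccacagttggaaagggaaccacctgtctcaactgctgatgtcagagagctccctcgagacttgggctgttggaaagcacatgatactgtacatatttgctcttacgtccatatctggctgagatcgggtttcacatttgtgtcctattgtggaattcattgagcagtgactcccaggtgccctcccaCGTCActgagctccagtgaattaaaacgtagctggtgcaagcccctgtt

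In the *Pck1* sequence the capitals are an HNF1 arm starting 192 bases before the start, the core of a cyclic AMP response element starting 90 bases before it, and a GC box starting 16 bases before it. In *G6pc* they are an HNF1 arm at 221 bases and a TATA box at 29 bases. *Pklr* has a TATA box at 31 bases, and *Ppargc1a* has the cyclic AMP response element core at 49 bases. The letters were searched on both strands. The core TGACG stood in 17.8% of the 32851 RefSeq promoters over the same 250 bases, the HNF1 arm GTTAAT in 6.43%, the TATA box TATAAA in 12.4% and the GC box GGGCGG in 32.7%. The full element TGACGTCA, which contains the core, was in 1.55% of promoters and in 0 of the 10 windows of these genes. Other letters searched were the forkhead core TGTTTAC (3.17% of promoters), the HNF4A repeat CAAAGTCCA (0.384%), the C/EBP palindrome TTGCNNAA (9.56%), the glucocorticoid half-element TGTTCT (16.1%) and the E-box CACGTG (6.02%). Of these 5, the E-box was found, in 1 window, the *Pcx* promoter. A match is a run of letters and not a measured binding site.

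All 10 promoter regions of the 9 genes had lower signal in the *Mettl3*-HKO library, as did 83.9% of all promoter regions. Their log2 ratios ran from −1.23 at *Pck1* to −0.71 at *Pklr*, and each interval lay wholly below 0 and below the median of all regions. At the strongest promoter region of each gene the median was −0.82, beside −0.57 over the 13163 genes with a promoter region. The 10 regions together held 7440 counts in *Mettl3* flox/flox and 4183 in *Mettl3*-HKO, a log2 ratio of −0.97 (−1.02 to −0.91). At least 2-fold lower were 3 of 10, at *Pck1*, *G6pc* and 1 of the 2 regions of *Slc2a2*, where 16.3% of all promoter regions were. At least 2-fold higher were 0 of 10, where 4.07% of all were. This count depends on the scale. Centred on the median of all regions, 0 of 10 were 2-fold lower (5.0% of all promoter regions) and 0 of 10 were 2-fold higher (6.90%), and all 10 stayed below 0, as did 66.4% of all. Among the 1000 promoter regions nearest in mean RPM, the log2 ratio stood at percentile 3.85 for *Pck1*, 8.95 for *G6pc*, 10 and 36.5 for the regions of *Slc2a2* at 564 and 38 bp, 21.1 for *Ppargc1a*, 22.6 for *Fbp1*, 28.6 for *Gys2*, 37.8 for *Tat*, 39.5 for *Pklr* and 40.8 for *Pcx*, counted from the lowest.

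**Figure D1:**
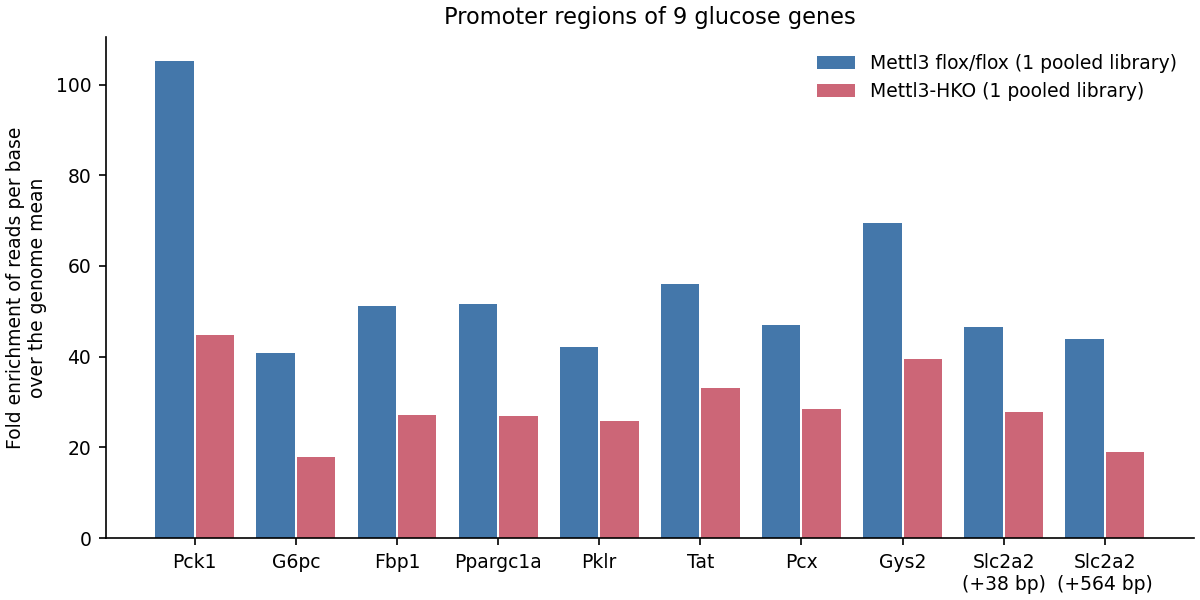
Fold enrichment of reads per base over the genome mean (vertical axis) at the 10 promoter regions of the 9 genes, with 1 bar for each pooled library. The *Mettl3* flox/flox bar is the taller in every pair, and *Pck1* stands highest in both libraries, at 105 and 44.7.

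Levels of different genes were compared by the deposited fold enrichment, which divides the reads per base of a region by the reads per base of the genome. *Pck1* had the most open promoter of the 9 in both libraries, at 105 in *Mettl3* flox/flox and 44.7 in *Mettl3*-HKO. *Gys2* came next, with levels of 69.6 and 39.5, followed by *Tat* with 56.1 and 33.0. *G6pc* was the lowest, with levels of 40.8 and 17.9, and *Slc2a2*, *Pcx*, *Fbp1*, *Ppargc1a* and *Pklr* lay between 42.2 and 51.6 in *Mettl3* flox/flox at their strongest promoter region. Over all promoter regions the median enrichment was 25.8 and 16.7, so all 9 genes stood above the median promoter in both libraries. With 1 library each, the order of neighbours in this list has no replicate check.

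**Figure D2:**
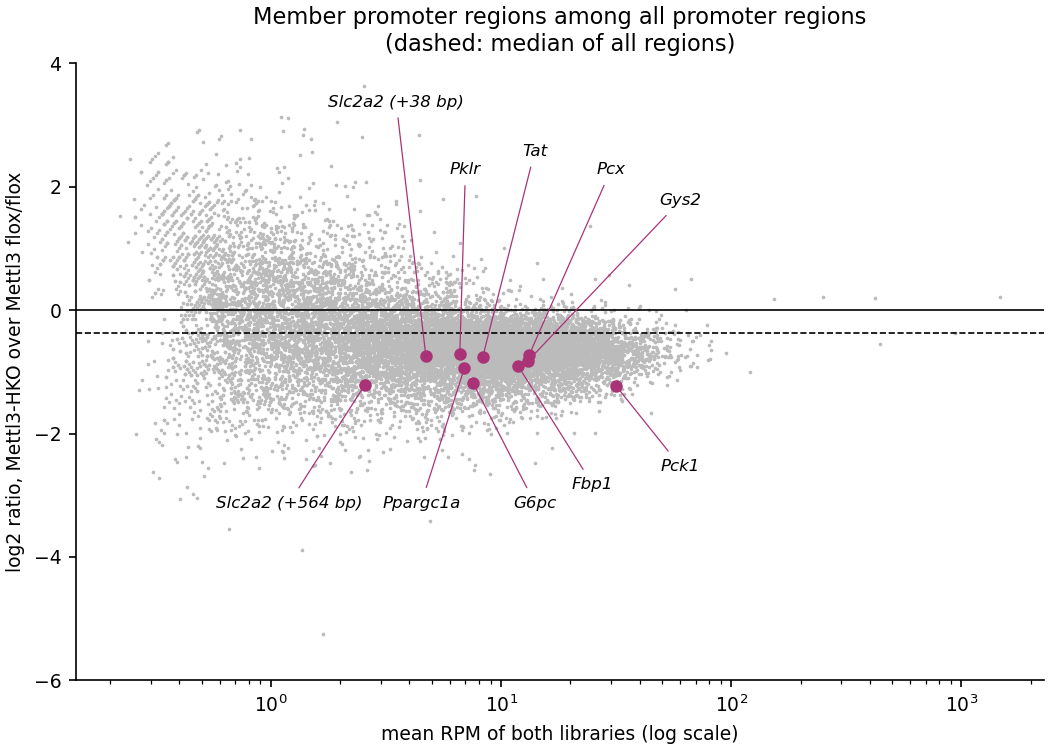
Log2 ratio, *Mettl3*-HKO divided by *Mettl3* flox/flox, (vertical axis) against mean RPM of both libraries (horizontal axis, log scale) for all 14387 promoter regions in grey and the 10 member regions in purple. All 10 lie below 0 (solid line) and below the median of all regions, −0.38 (dashed line), with *Pck1*, *G6pc* and the region of *Slc2a2* 564 bp past the TSS lowest.

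The enzymes that belong to glucose synthesis are given first, in the order of the path. *Pcx*, on chr19, had its promoter region at chr19:4509906-4510865, which runs from the flank into intron 1. It held 871 counts (16.5 RPM) in *Mettl3* flox/flox and 578 (9.98 RPM) in *Mettl3*-HKO, a log2 ratio of −0.73 (−0.88 to −0.57). The control library was higher here by 1.65-fold. Among all promoter regions this stood at percentile 34.9, counted from the lowest log2 ratio, and so not far below the middle.

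All 7 of the other regions of *Pcx* are centred in intron 2. Of these, 4 had a peak only in *Mettl3* flox/flox and so entered the table through the library in which they are high, and 2 had a peak in both libraries. The 2 with a peak in both lay 26272 bp from the TSS, with 87 counts in *Mettl3* flox/flox and 48 in *Mettl3*-HKO (log2 ratio −0.98, −1.53 to −0.47), and 35697 bp from it, with 136 counts and 71 counts (log2 ratio −1.06, −1.51 to −0.65). The lowest of the 7, at chr19:4558735-4559101 and 48445 bp from the TSS, had 84 counts and 15 counts, a log2 ratio of −2.55 (−3.52 to −1.82). This is a weak region, and it was the lowest of all 62. Its neighbour at chr19:4557777-4558525, the strongest of the intron regions, had 252 counts and 69 counts, a log2 ratio of −1.99 (−2.41 to −1.62). Each had a peak called only in *Mettl3* flox/flox. The exception was the region 11130 bp into the gene, where 18 counts in *Mettl3* flox/flox faced 30 in *Mettl3*-HKO (log2 ratio 0.57, −0.29 to 1.53). That interval includes 0 but lies wholly above the median of all regions, −0.38, and a peak was called there only in *Mettl3*-HKO. A further 7 regions lie inside *Pcx* but closest to the TSS of *Lrfn4*, so that they are not among the 62. They ranged from −1.60 to −1.02, with a median of −1.34, and all 7 were lower in *Mettl3*-HKO. The same held for 57.6% of all regions outside the promoter window and inside a gene other than that of the closest TSS.

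*Pck1*, on chr2, encodes the cytosolic enzyme whose gene is a classical target of cyclic AMP and glucocorticoid signals in the liver. Its promoter region at chr2:173152437-173153590 is 1154 bp long, ends in exon 2 and contains the printed sequence with the cyclic AMP response element core. It held 2349 counts (44.5 RPM) in *Mettl3* flox/flox and 1096 counts (18.9 RPM) in *Mettl3*-HKO, a log2 ratio of −1.23 (−1.34 to −1.13), or 2.35-fold lower. The value stood at percentile 7.99 of all promoter regions. It was the lowest of the 10 promoter regions by log2 ratio, next to *Slc2a2* at 564 bp and *G6pc*, whose intervals overlap it.

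The chromatin around *Pck1* had the same direction, with 7 of 7 regions below 0 and 4 of 7 at least 2-fold lower. Of the 3651 genes with at least 5 regions, 17.3% had every region below 0, and 18.3% of all regions were at least 2-fold lower. Such shares, here and for the loci below, cover regions of every signal level, most of them weak. Centred on the median of all regions, 2 of 7 were 2-fold lower (7.89% of all regions), and the promoter region was not among them. By RPM its strongest region lay past the end of the gene, at chr2:173159332-173160782, with 2387 counts in *Mettl3* flox/flox and 1235 in *Mettl3*-HKO (log2 ratio −1.09, −1.19 to −0.99). Per length the promoter was higher, since the fold enrichment of that region was 85.1 and 40.1. Farther on, at chr2:173161568-173161857 and 8630 bp from the TSS, 382 counts stood against 118, a log2 ratio of −1.82 (−2.14 to −1.53), and a peak was called only in *Mettl3* flox/flox. This was the largest difference of the locus. The smallest was 6152 bp upstream, with 485 counts and 338 counts (log2 ratio −0.66, −0.86 to −0.45). A region in the last exon carried a peak only in *Mettl3*-HKO although its counts were 851 in *Mettl3* flox/flox and 568 in *Mettl3*-HKO, so a peak call and a count need not point the same way.

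*Fbp1*, on chr13, had 819 counts in *Mettl3* flox/flox and 478 in *Mettl3*-HKO at its promoter region, chr13:62887825-62888651, centred in exon 1. The log2 ratio was −0.91 (−1.08 to −0.75), at percentile 21.2 of all promoter regions. All 7 of its regions were below 0 (6 of 7 when centred on the median of all regions), as for 17.3% of genes with at least 5 regions, and 1 of 7 was at least 2-fold lower (0 of 7 when centred), beside 18.3% of all regions (7.89% when centred). That region lies in intron 1, 12674 bp from the TSS, with 190 counts and 80 counts (log2 ratio −1.37, −1.78 to −1.0). It had a peak only in *Mettl3* flox/flox and so entered the table through the library in which it is high. The strongest region of *Fbp1* lay 19994 bp upstream, outside any gene, with 1310 counts and 829 counts (log2 ratio −0.80, −0.92 to −0.67). The one nearest to no difference, 5393 bp upstream, had 91 counts and 84 counts (log2 ratio −0.25, −0.70 to 0.19), with an interval that includes 0.

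*G6pc*, on chr11, stands at the last step, which lets glucose leave the cell. Its promoter region at chr11:101367367-101368071 is centred in the 5′ UTR and contains the printed window with the TATA box. It held 555 counts (10.5 RPM) in *Mettl3* flox/flox and 267 (4.62 RPM) in *Mettl3*-HKO, a log2 ratio of −1.19 (−1.41 to −0.98), or 2.28-fold lower. This was at percentile 9.0 of all promoter regions.

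*G6pc* was the only one of the 9 genes with every region at least 2-fold lower in *Mettl3*-HKO. Its 5 regions ranged from −1.60 to −1.19, and together they held 3135 counts in *Mettl3* flox/flox and 1282 in *Mettl3*-HKO, a log2 ratio of −1.43 (−1.52 to −1.33). The strongest lay 11507 bp past the TSS, outside any gene, at chr11:101378374-101379763, where 1354 counts stood against 493 (log2 ratio −1.59, −1.74 to −1.44). The lowest was 2932 bp upstream, with 165 counts and 59 counts (log2 ratio −1.60, −2.07 to −1.18). Both were more than 3-fold lower, and the promoter had the smallest difference of the 5. The region 2932 bp upstream had a peak only in *Mettl3* flox/flox, so it entered the table through the library in which it is high. The other *G6pc* regions had a peak in both libraries. Of the 3651 genes with at least 5 regions, 26, or 0.712%, had every region at least 2-fold lower. Centred on the median of all regions, *G6pc* was not among such genes, with 3 of its 5 regions at least 2-fold lower.

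**Figure D3:**
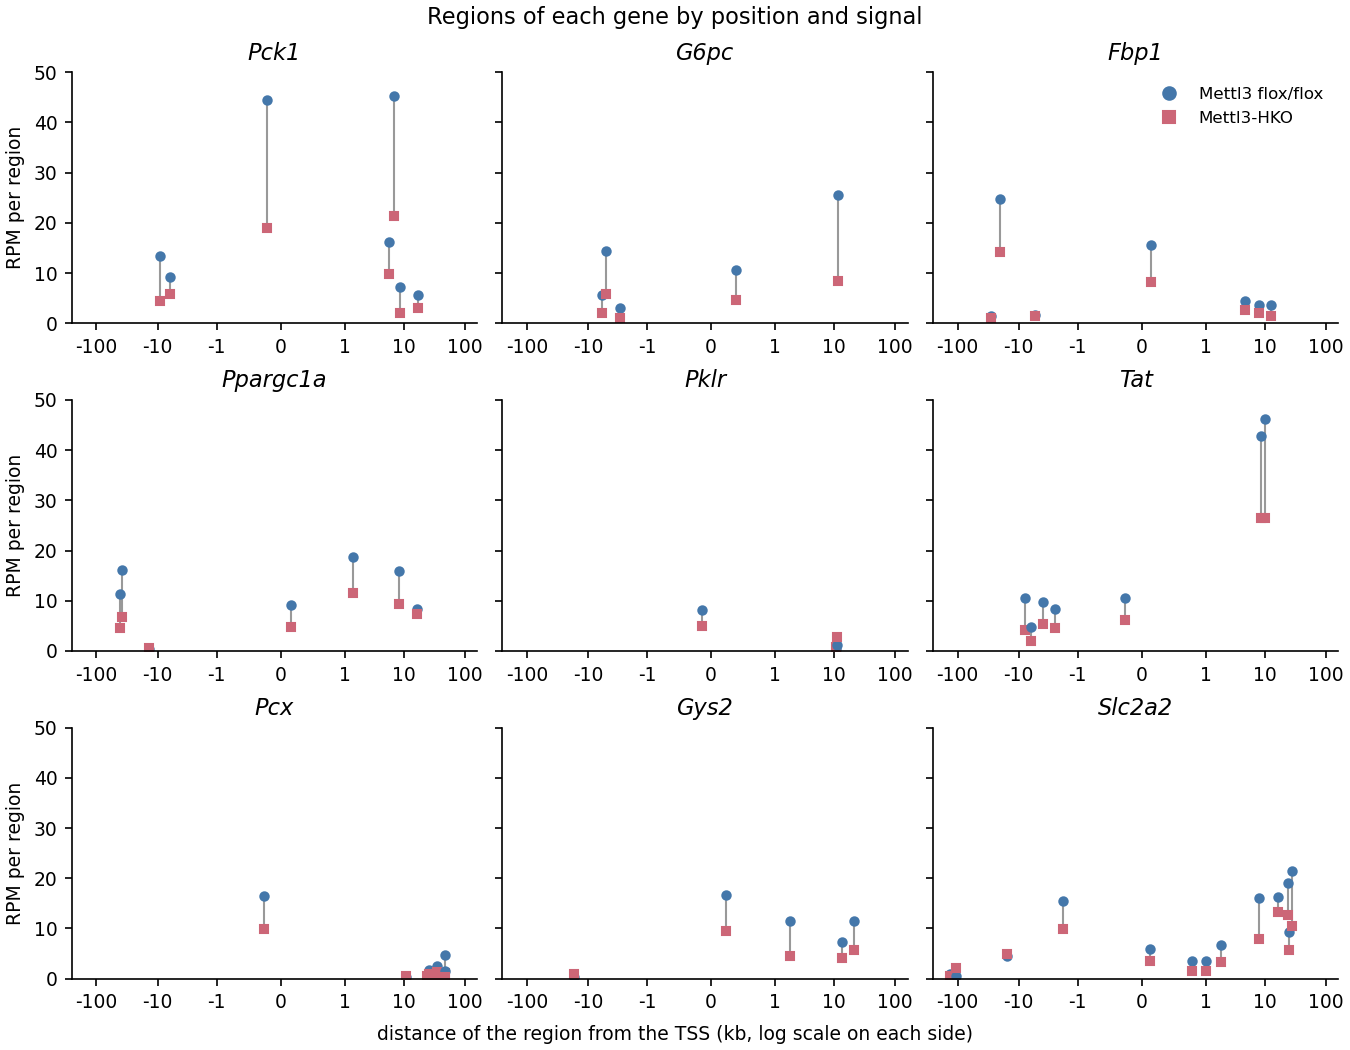
RPM of each region (vertical axis) by its distance from the TSS in kb (horizontal axis, log scale on each side of the TSS), 1 panel per gene, with blue circles for *Mettl3* flox/flox, red squares for *Mettl3*-HKO and a grey line joining the values of 1 region. Blue lies above red at all regions of *Pck1*, *G6pc*, *Fbp1* and *Tat*, while the exceptions in other panels are weak regions under 5 RPM in both libraries.

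*Tat*, on chr8, encodes tyrosine aminotransferase, which starts the breakdown of tyrosine to carbon for glucose synthesis and is a classical glucocorticoid target of the liver. Its promoter region had 552 counts in *Mettl3* flox/flox and 357 in *Mettl3*-HKO, a log2 ratio of −0.76 (−0.96 to −0.57). The values were lower in *Mettl3*-HKO at 7 of 7 regions, with 2 of 7 at least 2-fold lower, where 17.3% of genes with at least 5 regions had all regions below 0 and 18.3% of all regions were 2-fold lower. Centred on the median of all regions, 0 of 7 were 2-fold lower, beside 7.89% of all. The strongest of all its regions overlaps the end of the gene, 10016 bp from the TSS, with 2437 counts and 1533 counts (log2 ratio −0.80, −0.90 to −0.71). Next to it, a region centred in the last exon had the smallest difference of the locus, with 2261 counts and 1536 counts (log2 ratio −0.69, −0.79 to −0.60). The largest difference was 7732 bp upstream, with 553 counts and 243 counts (log2 ratio −1.32, −1.55 to −1.10). Both of the 2-fold lower regions lay upstream of the promoter region, and the one with the smaller difference had a peak only in *Mettl3* flox/flox.

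*Ppargc1a*, on chr5, encodes a transcriptional coactivator that is induced in fasting liver and raises the expression of gluconeogenic enzymes. The promoter region at the TSS the authors used, chr5:51553633-51554114, had 480 counts in *Mettl3* flox/flox and 274 in *Mettl3*-HKO, a log2 ratio of −0.94 (−1.16 to −0.73). The strongest region lay in intron 1, 1418 bp from the TSS, with 991 counts and 666 counts (log2 ratio −0.71, −0.85 to −0.57). This region is long, and per length it was below the promoter, with fold enrichments of 40.0 and 24.5. The lowest was 41893 bp upstream, with 596 counts and 264 counts (log2 ratio −1.31, −1.53 to −1.10). It was 1 of 2 regions of the 7 that were at least 2-fold lower, both far upstream, beside 18.3% of all regions. When centred, 0 of 7 were, beside 7.89% of all.

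RefSeq places a start of *Ppargc1a* elsewhere, 13803 bp upstream of the authors' TSS, and the printed *Ppargc1a* sequence is the one before that start. It falls wholly within the weak region at chr5:51567677-51567975, which had 19 counts in *Mettl3* flox/flox and 33 in *Mettl3*-HKO. The log2 ratio of 0.63 (−0.20 to 1.56) was the highest of the gene, and a peak was called only in *Mettl3*-HKO. Its interval includes 0 but lies wholly above the median of all regions, −0.38. The fold enrichment there was 3.46 and 5.35, against 51.6 and 26.8 at the authors' TSS. A further 3 regions inside *Ppargc1a* are closest to other TSSs and are not counted among the 62. All 3 were lower in *Mettl3*-HKO, with a median of −1.16. Of all regions outside the promoter window and inside a gene other than that of the closest TSS, 57.6% were lower. Of the 3, the region 343 bp from its closest TSS falls outside that class.

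*Pklr*, on chr3, encodes liver pyruvate kinase, the last enzyme of glycolysis, which runs against glucose synthesis. Its promoter region at chr3:89136267-89136798 holds the printed *Pklr* sequence with its TATA box. It had 433 counts in *Mettl3* flox/flox and 290 in *Mettl3*-HKO, a log2 ratio of −0.71 (−0.93 to −0.50). That was the smallest difference of the 10 promoter regions, at percentile 36.0 of all. The other 2 regions assigned to *Pklr* lie in the 3′ UTR of the neighbouring gene *Hcn3*, 10593 and 11320 bp from the TSS. They had 18 counts and 62 counts in *Mettl3* flox/flox and 48 and 165 in *Mettl3*-HKO, with log2 ratios of 1.23 (0.47 to 2.15) and 1.26 (0.85 to 1.72). Both were higher in *Mettl3*-HKO, had a peak only there and were weak beside the promoter. With them the 3 regions summed to a log2 ratio of −0.16 (−0.34 to 0.016), or 0.21 when centred on the median of all regions, whereas the promoter alone gave −0.71.

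*Gys2*, on chr6, encodes the liver glycogen synthase, which stores glucose. Its promoter region at chr6:142472705-142473361 was the second most open of the 9 by fold enrichment, with 883 counts in *Mettl3* flox/flox and 550 in *Mettl3*-HKO and a log2 ratio of −0.82 (−0.97 to −0.66). Of the 3 further regions within the gene, the lowest lay in intron 1, 1831 bp from the TSS, with 606 counts and 265 counts (log2 ratio −1.33, −1.54 to −1.12). The strongest of them was centred in exon 8, with 607 counts and 336 counts (log2 ratio −0.99, −1.19 to −0.79). The region that was higher in *Mettl3*-HKO lies in the 3′ UTR of *Ldhb*, 17190 bp upstream, with 21 counts and 58 counts (log2 ratio 1.29, 0.59 to 2.12).

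*Slc2a2*, on chr3, encodes the glucose transporter GLUT2 of the hepatocyte membrane, which carries glucose in either direction. It had the most regions of the 9, 13 in all, of which 11 were lower in *Mettl3*-HKO, beside 64.8% of all regions. The promoter region 38 bp past the TSS had 310 counts in *Mettl3* flox/flox and 204 in *Mettl3*-HKO (log2 ratio −0.74, −1.0 to −0.48). The other promoter region, in intron 1 at 564 bp, had 188 counts and 89 counts (log2 ratio −1.21, −1.60 to −0.84) and a peak only in *Mettl3* flox/flox. It is the member nearest to the 1 kb limit from inside, and the nearest from outside is also in intron 1 of *Slc2a2*, at 1006 bp, with 180 counts and 82 counts (log2 ratio −1.26, −1.66 to −0.89). The limit thus runs between neighbours with nearly the same values, and the region at 1006 bp was the lowest of the gene. It too had a peak only in *Mettl3* flox/flox and so entered the table through the library in which it is high.

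Within *Slc2a2* the differences were uneven. A region 27588 bp from the TSS in intron 8 had 1135 counts in *Mettl3* flox/flox and 605 in *Mettl3*-HKO (log2 ratio −1.04, −1.19 to −0.90). Nearly the same mean RPM was found 24116 bp from the TSS, with 1004 counts and 733 counts (log2 ratio −0.59, −0.73 to −0.45) and the higher fold enrichment of both. In intron 4, 16358 bp from the TSS, a region had 854 counts and 766 counts, a log2 ratio of −0.29 (−0.44 to −0.15). Its interval does not overlap that of the region at 27588 bp, although both lie in the same gene. Upstream, at 15788 bp and outside any gene, 239 counts stood against 280 (log2 ratio 0.092, −0.16 to 0.35). That interval includes 0 but lies wholly above the median of all regions, −0.38. The highest log2 ratio of all 62 regions was at chr3:28591245-28591781, in intron 12 of *Tnik*, 106390 bp upstream of *Slc2a2*. It had 22 counts and 125 counts, a log2 ratio of 2.32 (1.71 to 3.10), or 4.99-fold higher in *Mettl3*-HKO.

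**Figure D4:**
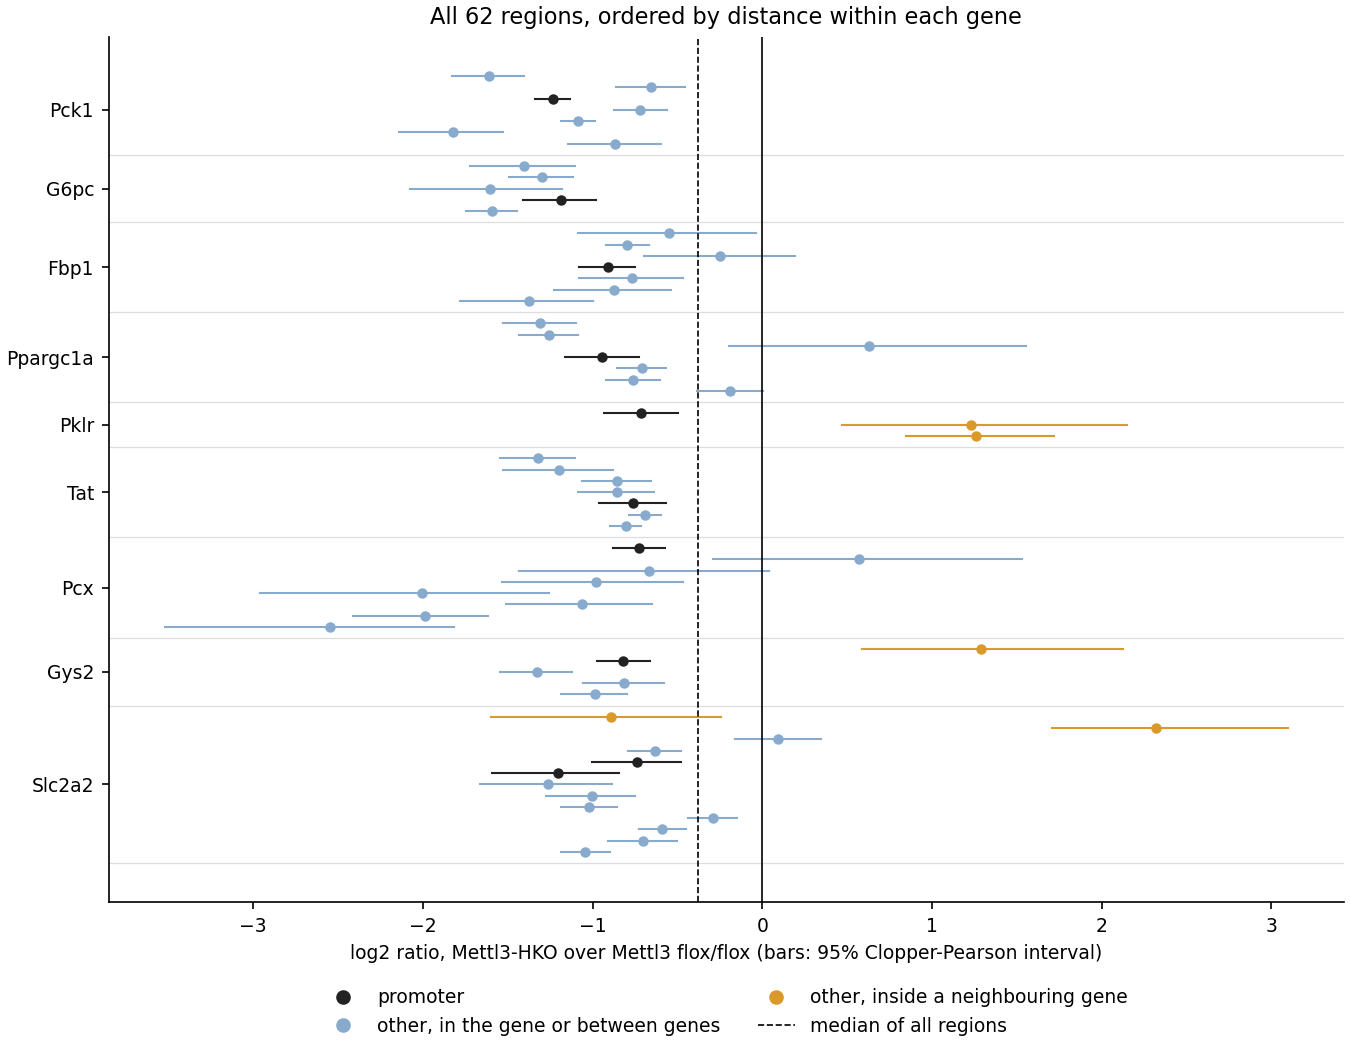
Log2 ratio, *Mettl3*-HKO divided by *Mettl3* flox/flox, (horizontal axis) for all 62 regions, grouped by gene and ordered by distance from upstream to downstream, with bars for the 95% Clopper-Pearson interval of counting error. Black promoter points all lie left of the dashed median of all regions, −0.38, and 4 of the 5 points inside a neighbouring gene (orange) lie right of 0.

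Over the 52 regions outside the promoter window the median log2 ratio was −0.86, beside −0.27 over all 55162 such regions. Signal matters to this comparison, since most regions of the table are weak. At a mean of at least 2 RPM the median was −0.88 over 39 regions of the 9 genes and −0.58 over all 18693, and under 2 RPM it was −0.55 over 13 and 0.022 over all 36469. At least 2-fold lower were 21 of 52, where 18.8% of all were, and at least 2-fold higher were 4 of 52, where 15.6% of all were. With the median of all regions set to 0, 8 of 52 were 2-fold lower (8.65% of all) and 5 of 52 were 2-fold higher (23.5%). The 62 regions took 0.213% of the counts in regions in *Mettl3* flox/flox and 0.163% in *Mettl3*-HKO.

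Of 26 regions overlapping their own gene 25 were below 0, where 62.2% of all such regions were. Of 21 outside any gene 19 were below 0, where 59.9% of all were. Of the 5 inside a neighbouring gene 1 was below 0, where 57.6% of all were, and the other 4 were at least 2-fold higher, where 16.3% of all were. Those 4, in *Tnik*, *Ldhb* and *Hcn3*, had 18 to 62 counts in *Mettl3* flox/flox and a peak only in *Mettl3*-HKO. A region is assigned here by distance alone, and nothing in these data ties those 4 to *Slc2a2*, *Gys2* or *Pklr*. The share below 0 also went with signal. At a mean of at least 2 RPM 37 of 39 regions were below 0, where 80.3% of all such regions outside promoters were, and under 2 RPM 8 of 13 were, where 49.3% of all were. Among regions with a mean of at least 2 RPM, 18 of 39 were at least 2-fold lower (23.0% of all such regions outside promoters) and 1 of 39 was 2-fold higher (3.66%). Under 2 RPM, 3 of 13 were lower (16.6%) and 3 of 13 were higher (21.8%). The 2-fold higher regions were thus mostly weak ones, in the whole table as among these genes.

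Whole loci were ranked by the summed counts of their regions among the 3651 genes with at least 5 regions, whose median log2 ratio was −0.47. *G6pc* stood at percentile 1.49, *Pck1* at 6.64, *Pcx* at 10.6, *Gys2* at 13.8, *Fbp1* at 19.7, *Ppargc1a* at 19.8, *Tat* at 20.8 and *Slc2a2* at 32.5. *Pklr* had 3 regions and was not ranked. The sums, for these genes as for all, include regions that entered the table through a peak in *Mettl3* flox/flox only. For *Pcx* these were 4 regions with 438 counts in *Mettl3* flox/flox and 128 in *Mettl3*-HKO (log2 ratio −1.90, −2.21 to −1.62), which lower its rank. All 8 ranked loci lay below the median gene, with the genes of the last step of glucose release and of phosphoenolpyruvate synthesis lowest.

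The rest of the pathway was described by 51 further genes of glycolysis, gluconeogenesis, glycogen metabolism and their regulators, of which 46 had a promoter region. At these 46 the log2 ratio was below 0 for 44, as for 85.1% of all genes with a promoter region, with a median of −0.66, and 8 of 46 were at least 2-fold lower, where 15.9% of the 13163 genes with a promoter region were, and 0 of 46 were at least 2-fold higher (3.84%). Centred on the median of all regions, 3 were 2-fold lower (4.61% of genes) and 1 was 2-fold higher (6.43%). The medians of the groups were −0.48 over 10 glycolysis genes, −0.64 over 14 gluconeogenesis genes, −0.81 over 8 glycogen genes and −0.84 over 14 regulators. At least 2-fold lower were 1 of 10 glycolysis genes, 1 of 14 gluconeogenesis genes, 1 of 8 glycogen genes and 5 of 14 regulators, of which 2 of 14 were when centred.

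**Figure D5:**
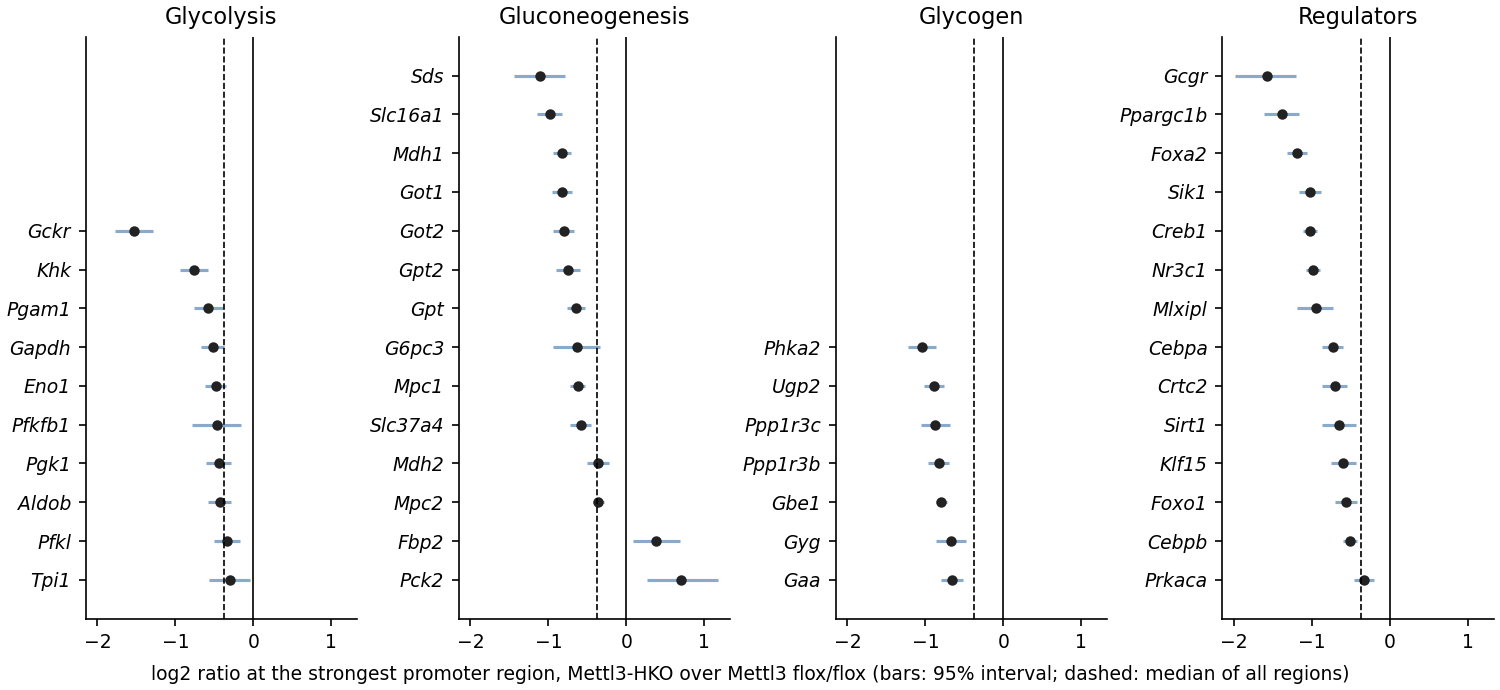
Log2 ratio, *Mettl3*-HKO divided by *Mettl3* flox/flox, (horizontal axis) at the strongest promoter region of 45 of the 46 other pathway genes with one, in 4 panels by group, with bars for the 95% Clopper-Pearson interval. The median of all regions, −0.38, is dashed, and *Pck2* and *Fbp2* are the 2 genes right of 0.

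The lowest value belonged to *Gcgr*, the glucagon receptor, with 209 counts in *Mettl3* flox/flox and 76 in *Mettl3*-HKO (log2 ratio −1.58, −1.99 to −1.21). *Gckr*, whose product regulates hepatic glucose phosphorylation, had 521 counts and 198 counts (log2 ratio −1.53, −1.77 to −1.29). *Ppargc1b*, a coactivator related to *Ppargc1a*, had 565 counts and 237 counts (log2 ratio −1.39, −1.61 to −1.17). These 3 were lower than any promoter region of the 9 genes. *Foxa2*, a forkhead factor of hepatocytes, followed with 1650 counts and 792 counts (log2 ratio −1.19, −1.32 to −1.07).

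The 2 genes above 0 were *Pck2* and *Fbp2*. *Pck2*, the mitochondrial form of phosphoenolpyruvate carboxykinase, had 66 counts in *Mettl3* flox/flox and 119 in *Mettl3*-HKO, a log2 ratio of 0.71 (0.27 to 1.17), while its cytosolic counterpart *Pck1* was at −1.23. *Fbp2*, the muscle form of fructose bisphosphatase, had 161 counts and 231 counts, a log2 ratio of 0.38 (0.09 to 0.68), while *Fbp1* was at −0.91. *G6pc3*, another form of the *G6pc* enzyme, was below 0, with 223 counts and 158 counts, a log2 ratio of −0.63 (−0.94 to −0.33). The promoters of *Pck2* and *Fbp2* were weak, with fold enrichments of 4.67 and 14.4 in *Mettl3* flox/flox. *Tpi1*, triosephosphate isomerase, was also among the 4 highest, at −0.30 (252 counts and 224 counts).

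The direct partners of the 9 genes gave further values. *Slc37a4*, which carries the substrate of *G6pc* into the endoplasmic reticulum, had 1015 counts in *Mettl3* flox/flox and 743 in *Mettl3*-HKO (log2 ratio −0.59, −0.72 to −0.45), a smaller difference than *G6pc* itself. *Pygl*, the liver glycogen phosphorylase that breaks down what *Gys2* makes, had 2 regions and none within 1 kb of its TSS. They had log2 ratios of −0.86 (52 counts and 31 counts) and −0.14 (225 counts and 224 counts).

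Markers of other liver cells differed between the libraries as well. Of the 8 endothelial markers 7 had a promoter region, and the log2 ratio was above 0 at all 7, with a median of 1.60 and 5 of 7 at least 2-fold higher (3.84% of all genes), from 11 to 48 counts in *Mettl3* flox/flox and 28 to 89 in *Mettl3*-HKO. *Pecam1* had no promoter region. Summed over all regions of the list, the endothelial markers had 32.9 RPM in *Mettl3* flox/flox and 41.3 RPM in *Mettl3*-HKO, and the hepatocyte markers had 478 RPM and 345 RPM (log2 ratio −0.47, −0.50 to −0.45). The same sums had log2 ratios of −0.57 for macrophage, −1.97 for stellate cell, −0.38 for cholangiocyte and −1.05 for lymphocyte markers, from 12, 3, 23 and 4 regions. A sum follows its few strong regions, and the median over the regions was above 0 for the macrophage (0.51) and stellate cell (0.076) lists. At promoters the hepatocyte markers had a median of −0.66, from −1.57 at *Ass1* to 0.015 at *Alb*, with 7 of 8 below 0, so the range of the 9 genes lies within that of the hepatocyte markers. The *Mettl3*-HKO mice also carry the *Alb* promoter of the Cre transgene, and its part in the *Alb* value was not tested. The next highest marker was *Cps1*, at −0.31. Promoter regions were found for 2 of 8 macrophage markers (*C1qa* at a log2 ratio of 2.05 and *Cd14* at 0.53, with 8 and 45 counts in *Mettl3* flox/flox and 40 and 72 in *Mettl3*-HKO), 2 of 8 stellate cell markers (*Col1a1* at 0.076 and *Reln* at −2.51) and 5 of 8 cholangiocyte markers. No region at all was closest to *Cd68*, *Vsig4*, *Lrat*, *Des*, *Pdgfrb*, *Krt19*, *Krt7* or *Cd3e*, which mark macrophages, stellate cells, cholangiocytes and lymphocytes. The part of these markers, and of the cells they mark, in the lower signal of the 9 genes was not tested.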

How the data were processed

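ATAC-seq was analysed for 1 pooled library of *Mettl3* flox/flox livers and 1 of *Mettl3*-HKO livers, grouped by their genotype labels. The RNA-seq and m6ARIP-seq data were not used here. Per the study's methods, the authors trimmed adaptors with skewer, aligned with BWA, kept properly paired nuclear reads, and called peaks with MACS2, keeping duplicate reads. The read counting, and any shift of read ends toward the Tn5 cut, are not given in the sources used here. Positions are on GRCm38, with starts converted to count from 1.

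The authors deposited 1 table of 74821 rows with, for each library, raw read counts, RPM values and a fold enrichment, a ratio that divides the read density of a region by that of the genome. The deposited log2 values, which the authors made from the RPM of both libraries, are a comparison of their own and were not used. Of the rows, 5272 repeated a region and were left out, 5 of them among the 67 rows of the 9 genes. The RPM values recomputed from the counts plus 1 differed from the deposited ones by at most 0.00402.

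Log2 ratios were computed from counts with 1 read added. No filter on low counts was applied. Regions past 2-fold were counted against all regions of the same class. Percentiles among the 1000 regions of the same class (promoter or other) nearest in mean RPM are descriptions of these libraries. The median region had 85 and 81 counts. The members and lists were chosen with earlier results of these data known. The splits of regions by place, peak and signal (2 RPM) and the ranking of loci were made after the values were seen. Named were all 9 genes, their highest, lowest and strongest other regions, and among further pathway genes the 4 lowest, the 4 highest and *Gckr*, *Slc37a4* and *Pygl*, apart from items that are not reported here. *G6pc3* and other regions named (the last exon of *Pck1*, intron 4 and the region 15788 bp upstream of *Slc2a2*, those of *Pcx* with a peak in both libraries, and those inside *Pcx* and *Ppargc1a* closest to another TSS) were chosen after their values were seen. Promoter sequences came from RefSeq. Scripts were tested on simulated data. The software was scipy 1.17.1, matplotlib 3.10.9, pandas 2.3.3 and numpy 2.4.6 under Python 3.11.15.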

Additional observations from a re-analysis of the deposited data

How the results depend on the processing

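With 1 library per group, only the scaling, thresholds and filters could be varied. No paired analysis was possible because each group has 1 library and no replicate number. For the 9 genes, the medians of the promoter and other regions, the summed promoter ratio and every promoter stayed below 0 under these alternatives. The promoter closest to 0 was *Pklr*, at −0.07 when centred on the strongest 10% of promoter regions. The sum over all 3 regions of *Pklr* went from −0.16 to 0.21 when centred on the median of all regions. The sizes depend on the scale. Centred on the median of all regions, centred on the strongest 10% of promoter regions, and scaled by the counts in regions, in that order, the median promoter ratio moved from −0.82 to −0.44, −0.17 and −0.31, and the summed promoter ratio from −0.97 to −0.59, −0.32 and −0.45. The promoter regions at least 2-fold lower went from 3 to 0, 0 and 0. The median of the other regions moved from −0.86 to −0.48, −0.22 and −0.35, and those at least 2-fold lower went from 21 to 8, 4 and 7. The median of the further pathway genes moved from −0.66 to −0.28 when centred on all regions. A 2000 bp window gave 6 of 15 promoter regions at least 2-fold lower (17.2% of all), and 10 of 10 were at least 1.5-fold lower (47.8% of all). Among the other regions 41 of 52 were at least 1.5-fold lower (36.5% of all). With a peak in both libraries 13 of 34 were at least 2-fold lower (15.7% of all) and 0 higher (3.76%). With 10 reads added, 2 in place of 4 of the other regions were at least 2-fold higher. Depth limits the weak regions: 3 of the 4 regions in neighbouring genes that were 2-fold higher had under 50 counts in *Mettl3* flox/flox, and their intervals are wide.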
